A study of Mus musculus with 6 samples.

Results

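The chemokine system of the mouse optic nerve was described here through 64 genes, of 35850 in the deposited table, whose symbols name a chemokine or a chemokine receptor. They were taken by symbol: every Ccl, Cxcl, Xcl1 or Cx3cl1 ligand, every Ccr, Cxcr, Xcr1 or Cx3cr1 receptor, and the atypical receptors Ackr1 to Ackr4. The ligands Ccl2, Ccl3, Ccl4, Ccl5 and Ccl12 were left out of the set by the rule, and the rule itself uses no measured value. The 64 genes carry 58 symbols, because Ccl19, Ccl21a, Ccl21b and Ccl27a are each listed under several identifiers. They comprise 39 ligands, 19 receptors, 4 atypical receptors and 2 pseudogenes.

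The series sequenced poly(A) RNA from whole optic nerve in 6 libraries, 3 from a control diet and 3 from an obesogenic diet, at 6 weeks of age. All mice had the genotype GFAP-Cre; Nf1-Flox/R681X, in which Cre driven by the GFAP promoter removes the floxed copy of Nf1 in glia and their precursors, while the other copy carries the R681X mutation. Nf1 encodes neurofibromin, a brake on RAS, and such mice are used as a model of optic pathway glioma. Controls carried the same alleles, so no comparison with wild-type nerve can be made. Controls were given PicoLab 5053 chow, while the obesogenic feed followed an AIN-76A recipe with sucrose and 58% fat energy, and the title of the series places the exposure in the mother. The labels do not say that the libraries came from separate animals or litters, so the p-values reflect only how far these samples scatter, and that scatter may be technical.

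Chemokines are small secreted or membrane-anchored proteins that bind receptors coupled to inhibitory G proteins and direct the movement of leukocytes, glia and precursor cells. Some are made constantly by stroma, vessels or neurons (Cxcl12, Cx3cl1, Ccl19), whereas others (Cxcl9, Cxcl10, Cxcl11) are induced by interferons during inflammation. Atypical receptors bind chemokines without coupling to G proteins and remove them. In brain and optic nerve, Cx3cl1 of neurons signals to Cx3cr1 on microglia, and this pair has been studied in Nf1 optic glioma as a route of microglial support.

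Values are in TPM, transcript abundances corrected for transcript length and scaled to a fixed total, summed over the transcripts of a gene and given in the order of libraries 1, 2 and 3 of each diet. TPM carries no read depth, so the depth behind each value is unknown. The libraries listed 788456 to 832193 TPM and 13824 to 14514 genes at 1 TPM or more. Markers of the labelled tissue were present: 9 oligodendrocyte genes summed to 27029 to 69944 TPM and 10 astrocyte genes to 3034 to 7999 TPM in the 6 libraries. The second obesogenic library stood apart: immunoglobulin genes took 20.6% of its listed TPM and at most 0.0439% of any other library. The first and the third obesogenic libraries were highest for 10 genes of hypothalamic neuropeptides, at 8105 and 6975 TPM in sum, against 1362 TPM in the second obesogenic library and 419.9 to 2220.3 TPM in the controls. Avp carried most of the control sums, at 2038 TPM in the third control library. By the median over the 9 tested genes of this list, all 3 obesogenic libraries lay above the control mean on the log2 scale, by 3.89, 1.68 and 4.11, and 7 of the 9 were higher without overlap. A comparison of diets without the second obesogenic library is given after the members' values.

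Of the 64 genes, 58 were above 0 in at least 1 library and 30 reached the level used for testing, 1 TPM in at least 3 libraries. The 30 were 17 ligands, 9 receptors, 3 atypical receptors and 1 pseudogene. Of the 34 others, 21 stayed below 1 TPM in every library, among them 6 listed at 0 throughout, and 7 reached 5 TPM or more in some library. The set summed to 604, 565 and 406 TPM in the controls and to 377, 1921 and 498 TPM in the obesogenic libraries, so the second obesogenic library held the highest total, the first the lowest, and the third lay within the controls. Ligands made up 1605 TPM of that highest total and receptors 248 TPM.

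None of the 30 tested genes passed an adjusted p of 0.05 between diets in limma, where 0.00696% of the 14364 genes tested did, that is, 1 gene. The smallest adjusted p among them was 0.267. At an unadjusted p under 0.05 stood 2 members, Cxcl12 lower and Cx3cl1 higher with the obesogenic diet, where 11.0% of all genes did. The same 2 genes were the ones whose libraries did not overlap between diets, 1 lower (7.45% of all genes) and 1 higher (8.88% of all genes). Each of these counts is a smaller share of the 30 than the background beside it. Here and below, a gene's mean is called lower or higher on the log2(TPM + 1) scale. It was lower with the obesogenic diet for 13 members (43.3%, against 42.3% of all genes tested) and higher for 17. By mean TPM, Cxcl16 (37.0 against 56.1 TPM) and Ccl19 (31.3 against 35.7 TPM), counted as lower, were higher with the obesogenic diet. The members' median log2 change was 0.17, against 0.08 over all genes tested.

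**Figure D1:**
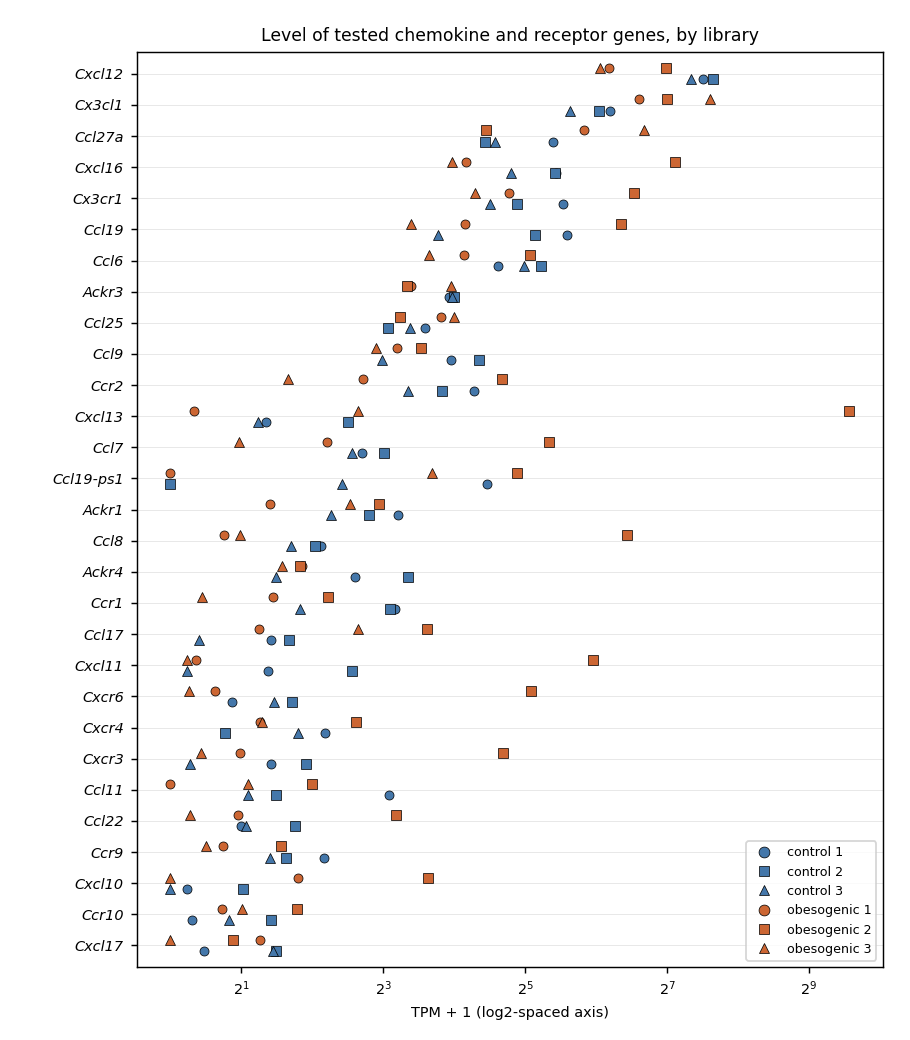
Level of tested chemokine and receptor genes in each library, with TPM + 1 on a log2-spaced axis, blue for the control diet and orange for the obesogenic diet, and 1 marker shape per library number. The orange square, the second obesogenic library, is the rightmost point in many rows and reaches 754 TPM for Cxcl13.

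The plot of levels by library shows that the set was dominated by a few genes. Cxcl12 and Cx3cl1 were the highest members in the controls, and apart from Cx3cr1 no receptor exceeded 18.4 TPM outside the second obesogenic library.

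Cxcl12, which holds leukocytes, precursor cells and vessels in place through Cxcr4, was measured at 180.4, 199.7 and 159.9 TPM in the controls and at 71.7, 126 and 65.6 TPM in the obesogenic libraries. Every obesogenic library lay below every control library, and the second obesogenic library was the highest of its diet. The log2 change was -1.09 ± 0.27 (SE, n = 3 per diet; limma, unadjusted p = 0.00460, adjusted p = 0.267), which did not pass. In rank by level, Cxcl12 stood at 511 to 673 of the 35850 genes in the controls and at 828 to 2403 in the obesogenic libraries.

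Almost all of the Cxcl12 signal came from 1 of its listed protein-coding transcripts, Cxcl12-202, at 169, 188 and 142 TPM in the controls and 61.6, 118 and 58.0 TPM in the obesogenic libraries. This transcript did not overlap between diets. Cxcl12-201 was listed at 6.22, 6.57 and 10.7 TPM against 7.34, 4.34 and 5.95 TPM, with overlapping diets. Over all member transcripts, 165 were listed, 51 were tested and 0 passed an adjusted p of 0.05 in limma, where 0.00565% of the 35408 transcripts tested did. At an unadjusted p under 0.05, 2 were lower (Cxcl12-202 and the minor transcript Ccl27a-208) and 1 was higher (Cx3cl1-201), where 3.84% of all transcripts were lower and 4.63% higher at that p. The smallest adjusted p was 0.266.

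The receptors of Cxcl12 did not separate the diets. Cxcr4, the signalling receptor, was low, at 3.53, 0.705 and 2.48 TPM in the controls and 1.39, 5.15 and 1.45 TPM in the obesogenic libraries. Ackr3, the atypical receptor that takes up and degrades Cxcl12, was measured at 14.2, 15.0 and 14.7 TPM against 9.45, 9.04 and 14.6 TPM. The first 2 obesogenic libraries were lower for Ackr3 than any control, and the third lay within the controls, with a log2 change of -0.41 ± 0.26 (limma, adjusted p = 0.621). With TMM scaling, Ackr3 joined Cxcl12 among the genes that were lower without overlap, as 10.6% of the 14371 genes tested with that scaling were.

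Marker genes of the cells that line vessels and meninges were also lower with the obesogenic diet. The sum of 10 endothelial genes was 229 to 436 TPM in the controls and 145 to 216 TPM in the obesogenic libraries, all 10 had a lower mean with the obesogenic diet, and none was at 0 in every library. The sum of the pericyte and smooth muscle list was 792 to 1202 TPM against 433 to 451 TPM, with a lower mean in 9 of the 9 tested genes and Pdgfrb listed at 0 throughout. The meningeal fibroblast list summed to 1768 to 2709 TPM against 686 to 869 TPM, with a lower mean in 10 of 10. Within the obesogenic diet, the meningeal fibroblast sum was highest in the second library, as Cxcl12 was. The endothelial sum was highest in the third, and the pericyte and smooth muscle sum in the first. Other lists were lower too. Oligodendrocyte genes summed to 61973 to 69944 TPM against 27029 to 55270 TPM, with a lower mean in 9 of 9. All 10 border macrophage genes had a lower mean on the log2 scale, though Clec12a was highest in the second obesogenic library, at 18.7 TPM. The part of these cells in the Cxcl12 result was not tested, and in bulk tissue fewer cells of a type and less RNA per cell cannot be told apart.

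Cx3cl1, or fractalkine, the membrane-anchored chemokine of neurons, was measured at 72.2, 64.9 and 48.4 TPM in the controls and at 96.0, 126 and 194 TPM in the obesogenic libraries. Every obesogenic library lay above every control. The log2 change was 1.11 ± 0.29 (SE, n = 3 per diet; limma, unadjusted p = 0.00611, adjusted p = 0.283), which did not pass. Its main transcript, Cx3cl1-201, was at 67.0, 64.4 and 48.4 TPM against 94.6, 121 and 182 TPM.

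By sum, markers of neurons were higher in the same libraries. The sum of 10 neuron genes was 95.2, 66.8 and 134 TPM in the controls and 334, 180.4 and 974 TPM in the obesogenic libraries. All 10 had a higher mean with the obesogenic diet, 6 were higher without overlap, and none was at 0 throughout. In the second obesogenic library Tubb3 alone made up 120 TPM of the sum, and Nefl, at 9.12 TPM, was below every control. Cx3cl1 and the neuron sum were both highest in the third obesogenic library. They differed in order within the diet, since Cx3cl1 was higher in the second obesogenic library than in the first, and the neuron sum was lower. The part of the neuron markers in the Cx3cl1 values was not tested.

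Cx3cr1, the fractalkine receptor and a defining gene of microglia, overlapped between diets. It was measured at 45.1, 28.6 and 21.7 TPM in the controls and 26.3, 91.5 and 18.6 TPM in the obesogenic libraries, with a log2 change of 0.23 ± 0.58 (limma, adjusted p = 0.918). On the log2(TPM + 1) scale, Cx3cr1 minus the mean of 10 microglial markers was 0.01, -0.09 and -0.20 in the controls, -0.02 and -0.25 in the first and the third obesogenic libraries, and 0.79 in the second. The markers themselves spread in that library: their level there, minus the control mean, ran from -0.75 (Gpr34) to 3.00 (Aif1) on the same scale, and that of Cx3cr1, at 1.56, lay within this range. The microglia list summed to 496 to 771 TPM in the controls and to 523, 1391 and 469 TPM in the obesogenic libraries, with Fcrls listed at 0 throughout.

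**Figure D2:**
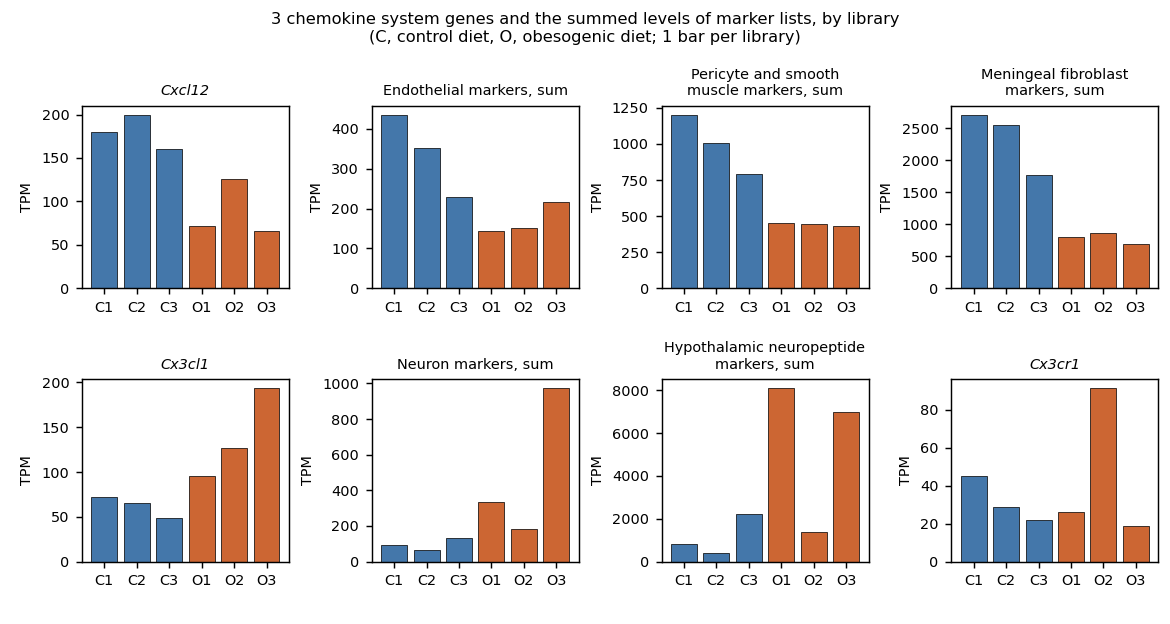
Level in TPM of Cxcl12, Cx3cl1 and Cx3cr1 and the summed TPM of 5 marker lists, 1 bar per library, with control libraries C1 to C3 in blue and obesogenic libraries O1 to O3 in orange. The orange bars of Cxcl12 (65.6 to 126 TPM) lie under the blue ones (159.9 to 199.7 TPM), as do those of the 3 vessel and meninges lists, and the bars of Cx3cl1 and of the neuron list are highest in O3.

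The bar charts of single genes beside marker sums place each library of Cxcl12 and Cx3cl1 next to the cells that could carry them. The single high bar of Cx3cr1 belongs to the second obesogenic library, at 91.5 TPM.

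The second obesogenic library was the highest of the 6 for 30 of the 64 genes. Among the 30 tested it was the highest for 17, or 56.7%, against 12.7% of all genes tested. Scaled without immunoglobulin genes it was the highest for 18, or 60%, against 21.8% of all genes, and with TMM scaling for 18, or 60%, against 22.4%. In 11 members that were above 0 in some other library, it was at 5 TPM or more and at least 5 times as high as any other library. Of these, 6 were ligands and 5 receptors. The pseudogene Ccl19-ps3, at 20.7 TPM and above 0 in that library only, comes in addition. The share of all genes was not counted for this cutoff, nor for the 64 genes before the filter. This is a description of 1 library, and nothing here shows that it stands for the diet.

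The genes of this library include the interferon-induced ligands Cxcl9 and Cxcl10, which lie 1 protein-coding gene apart on chromosome 5, and the B-cell ligand Cxcl13 farther along the same chromosome. Their promoter windows are shown because these ligands shared their highest library, and because interferon response and NF-kappa-B elements are known to control interferon-induced ligands. Each window runs from 250 bases before to 50 bases after the RefSeq start site in GRCm38.p6 and reads 5′ to 3′ on the gene's own strand. Capitals mark matches, on either strand, to GAAANNGAA (interferon response), TTCNNNGAA (interferon-gamma site) or GGANNTTCC (NF-kappa-B). Cxcl9 is at chr5:92328030-92328329 and Cxcl10 at chr5:92348840-92349139, both on the minus strand, and Cxcl13 is at chr5:95956689-95956988 on the plus strand.
Cxcl9: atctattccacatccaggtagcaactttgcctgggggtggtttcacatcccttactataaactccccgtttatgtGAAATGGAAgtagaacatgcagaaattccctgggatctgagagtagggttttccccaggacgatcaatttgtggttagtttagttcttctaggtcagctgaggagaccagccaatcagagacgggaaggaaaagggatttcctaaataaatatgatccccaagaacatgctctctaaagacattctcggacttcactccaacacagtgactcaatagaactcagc
Cxcl10: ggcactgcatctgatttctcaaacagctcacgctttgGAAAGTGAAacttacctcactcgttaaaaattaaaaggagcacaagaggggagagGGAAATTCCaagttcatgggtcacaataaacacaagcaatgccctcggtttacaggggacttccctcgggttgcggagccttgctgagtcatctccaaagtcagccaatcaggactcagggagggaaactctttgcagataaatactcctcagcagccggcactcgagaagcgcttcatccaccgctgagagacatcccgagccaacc
Cxcl13: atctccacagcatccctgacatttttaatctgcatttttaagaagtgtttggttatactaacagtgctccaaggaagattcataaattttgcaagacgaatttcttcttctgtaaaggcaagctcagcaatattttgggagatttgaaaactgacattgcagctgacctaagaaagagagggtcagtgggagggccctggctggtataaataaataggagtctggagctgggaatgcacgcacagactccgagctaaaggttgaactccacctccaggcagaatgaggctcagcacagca

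The Cxcl9 window held 1 interferon response match, GAAATGGAA, 175 bases before the start site. The Cxcl10 window held GAAAGTGAA 213 bases before the start and the NF-kappa-B match GGAAATTCC 158 bases before it, the latter matching on both strands. The Cxcl13 window held none of the 3 motifs, which says only that these letters are not in this window. Windows were found for 44 of the 58 symbols, 48 windows in all. A symbol was counted if any of its windows matched, whereas the shares of all windows are per window, so they differ in unit. The interferon response letters were present in 7 of the 44 (Ccl1, Ccl19, Ccr2, Cxcl10, Cxcl14, Cxcl9 and Cxcr1) and in 8.56% of 32851 windows of the same length. The interferon-gamma letters were present in 4 of the 44 and 8.30% of all windows, and the NF-kappa-B letters in 6 of the 44 (Ccl1, Ccr3, Cxcl1, Cxcl10, Cxcl2 and Cxcl3) and 4.26% of all. A match is a description of letters and not a site, and the genes that hold one include Cxcl14 and Cxcr1, which were at 0.270 TPM and 0 in the second obesogenic library.

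Cxcl13, which draws B cells into follicles, showed the widest range of the set. It was measured at 1.53, 4.65 and 1.36 TPM in the controls and at 0.263, 754 and 5.23 TPM in the obesogenic libraries. In the second obesogenic library it stood at rank 102 of the 35850 genes, and at 10344 to 16674 in the other 5. Its log2 change of 2.49 ± 2.09 (limma, adjusted p = 0.720) was of the order of its standard error. Its receptor Cxcr5, on B cells and follicular helper T cells, was at 0.498 TPM in that library and at most 0.0900 TPM elsewhere.

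The ligands of Cxcr3 shared this pattern. Cxcl9 was listed at 0, 3.66 and 0 TPM in the controls and 0.0919, 63.6 and 0.304 TPM in the obesogenic libraries, and was too low elsewhere to be tested. Cxcl11 was at 1.59, 4.90 and 0.177 TPM against 0.288, 61.3 and 0.181 TPM. Cxcl10 was lower, at 0.173, 1.03 and 0 TPM against 2.48, 11.4 and 0 TPM. Cxcr3 itself, the receptor of activated T cells and NK cells, was at 1.66, 2.75 and 0.214 TPM against 0.971, 24.9 and 0.351 TPM. The second control library was the highest control for all 4 genes, and the 4 together summed to 12.3 TPM there against 161 TPM in the second obesogenic library.

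Cxcl16, a transmembrane ligand made by macrophages and endothelium, differed from these ligands in being well above 0 in every library. It was measured at 42.3, 41.8 and 26.8 TPM in the controls and at 17.0, 137 and 14.7 TPM in the obesogenic libraries. The first and the third obesogenic libraries were below all controls and the second was above all. Its receptor Cxcr6, of resident and effector T cells, was at 0.825, 2.27 and 1.75 TPM against 0.550, 32.7 and 0.195 TPM. Cxcl16 was carried in about equal measure by its protein-coding transcript Cxcl16-201 (20.1, 19.4 and 12.6 TPM in the controls) and Cxcl16-202, annotated as subject to nonsense-mediated decay (18.5, 21.9 and 12.3 TPM).

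Among homing genes of lymphoid tissue, Ccl19, the ligand that guides dendritic cells and naive T cells through Ccr7, was measured at 47.0, 34.3 and 12.7 TPM in the controls and 16.7, 80.7 and 9.47 TPM in the obesogenic libraries. Ccr7 was at 0.910, 1.97 and 0.536 TPM against 0.874, 19.2 and 0 TPM. The Ccl21 genes, which encode the other Ccr7 ligand, were below 1 TPM in every library. Of the 50-base words in the transcripts of Ccl19, 52.0% occur in other genes of GENCODE M21, and the value is 46.0% for Ccl19-ps1 and 71.6% to 100% for the Ccl21 copies and Ccl19-ps3, so their reads may be split between copies and their values are uncertain. Ccl19-ps1 was at 20.9, 0 and 4.35 TPM against 0, 28.5 and 11.9 TPM, and Ccl19-ps3 was above 0 only in the second obesogenic library, at 20.7 TPM.

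Further receptors and ligands of T cells, NK cells and dendritic cells peaked in the same library. Ccr8, a receptor of regulatory and type 2 T cells, was at 0, 0 and 0.107 TPM in the controls and 0.340, 15.7 and 0 TPM in the obesogenic libraries. Its ligand Ccl1 was at 2.41 TPM in the second control library and 5.13 TPM in the second obesogenic library, and at 0 in the other 4. Xcl1, a ligand of activated T and NK cells, was at 16.1 TPM, at 1.81 TPM in the first control library and at 0 in the other 4. Its receptor Xcr1, of cross-presenting dendritic cells, was at 0.231, 0.695 and 0.164 TPM in the controls and 0.348, 6.70 and 0.329 TPM in the obesogenic libraries. The Ccr4 ligands were low: Ccl17 was at 1.66, 2.18 and 0.325 TPM in the controls and 1.38, 11.3 and 5.23 TPM in the obesogenic libraries. Ccl22 was at 1.00, 2.39 and 1.09 TPM against 0.933, 8.03 and 0.207 TPM, and Ccr4 never exceeded 0.310 TPM. Ccl22, Cx3cl1 and Ccl17 are consecutive protein-coding genes on chromosome 8, and only Cx3cl1 of the 3 had non-overlapping diets.

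By sum, marker lists of T, NK, B and plasma cells and of monocytes were high in the same library. Those of border macrophages and neutrophils were not, and the dendritic-cell list was mixed. The T-cell list summed to 335 TPM in the second obesogenic library and 7.06 to 24.8 TPM in the other 5, the NK list to 191 TPM against 2.14 to 12.8 TPM, the B-cell list to 87.1 TPM against 2.42 to 6.27 TPM, and the plasma-cell list to 2572 TPM against 30.7 to 44.3 TPM. Within the NK list, Nkg7 (137 TPM) and Klrk1 (30.5 TPM) carried most of that sum. Ncr1 was at 1.28 TPM against at most 0.821 TPM elsewhere, and Klrb1c at 1.45 TPM against at most 1.26 TPM. Eomes, at 0.282 TPM, was below the 0.516 TPM of the third control library. Within the B-cell list, Pax5 was listed at 0 in the second obesogenic library. The monocyte list summed to 1209.6 TPM against 12.4 to 61.6 TPM, nearly all of it Ly6c2 at 1155 TPM. The dendritic-cell list, at 68.4 TPM there, lay within the controls (38.1 to 85.0 TPM), but its genes differed. Fscn1 was at 10.7, 57.1 and 59.9 TPM in the controls and at 3.14 TPM there. Itgax (17.9 TPM against at most 1.72 TPM elsewhere), Batf3 (24.9 against 10.1 TPM), Clec9a (4.51 against 0.395 TPM) and Xcr1 were highest there. Cd209a and Zbtb46 were not, and Flt3 was near 0. The border macrophage list (81.2 TPM against 161 to 189.9 TPM in the controls) and the neutrophil list (30.7 TPM against 38.0 to 65.8 TPM) lay below the controls. Interferon response genes summed to 4329 TPM against 313 to 751 TPM. The part of these cells in the chemokine values was not tested.

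**Figure D3:**
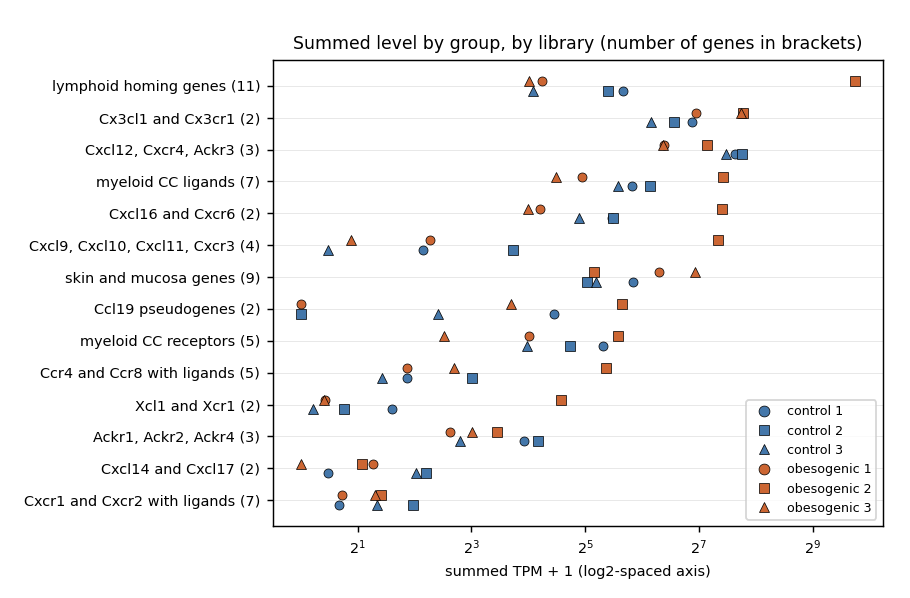
Summed level of the genes of each ligand and receptor group in each library, as summed TPM + 1 on a log2-spaced axis, with the number of genes in brackets and the same colours and shapes as the plot of single genes. The second obesogenic library (orange square) is rightmost for the lymphoid homing genes at 855 TPM and for the Cxcr3 group at 161 TPM, and lies between the controls and the other obesogenic libraries for the Cxcl12 group at 139.8 TPM.

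The plot of summed groups shows which groups carried the difference of that library. The lymphoid homing, Cxcr3, Cxcl16 and Xcl1 groups were far to the right of the other 5 libraries, whereas the Cxcl12 group, the atypical receptors and the skin and mucosa genes were not.

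The myeloid ligands Ccl7 and Ccl8 were highest in the second obesogenic library, while Ccl9 was not. Ccl8, a ligand of macrophages and type 2 T cells, was at 3.35, 3.09 and 2.24 TPM in the controls and 0.684, 85.4 and 0.971 TPM in the obesogenic libraries. Ccl7, a monocyte ligand of Ccr2, was at 5.50, 7.02 and 4.91 TPM against 3.61, 39.5 and 0.947 TPM. Both were below every control in the first and the third obesogenic libraries. Ccl6, a macrophage ligand of Ccr1, was at 23.5, 36.3 and 30.7 TPM against 16.7, 32.4 and 11.4 TPM, so that the second control library was the highest. Scaled without immunoglobulin genes, the second obesogenic library was the highest for Ccl6 instead, at 38.0 TPM against at most 35.3 TPM. Ccl9, a related ligand of Ccr1, was at 14.6, 19.4 and 6.91 TPM against 8.17, 10.6 and 6.46 TPM. Most of Ccl6 came from Ccl6-202, a retained-intron transcript, at 16.0, 27.7 and 22.8 TPM in the controls.

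Eotaxin genes, ligands of Ccr3 on eosinophils, were low. Ccl11 was at 7.45, 1.80 and 1.14 TPM in the controls and 0, 3.01 and 1.13 TPM in the obesogenic libraries. Ccl24 stayed between 0.174 and 1.44 TPM, Ccl26 was listed at 0, and Ccr3 was above 0 in 1 library only, at 0.294 TPM.

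The receptors of these ligands are expressed by monocytes, macrophages and microglia. Ccr2, which brings monocytes out of the blood, was at 18.4, 13.3 and 9.17 TPM in the controls and 5.53, 24.6 and 2.16 TPM in the obesogenic libraries. Ccr1 was at 7.98, 7.56 and 2.53 TPM against 1.72, 3.66 and 0.367 TPM, the most negative change of the set at -1.32 ± 0.57 on the log2 scale (limma, adjusted p = 0.461). The third obesogenic library was the lowest of the 6 for both receptors. The neutrophil marker list was also lowest in that library, at 3.17 TPM in sum against 13.7 to 65.8 TPM in the other 5. So were the monocyte (12.4 TPM), microglia (469 TPM) and border macrophage (76.9 TPM) lists. The part of these cells in the receptor values was not tested.

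Among ligands of skin and mucosa, Ccl27a and Ccl25 were present in the nerve without the second obesogenic library standing out. Ccl27a was at 41.0, 20.7 and 22.9 TPM in the controls and 55.6, 20.9 and 101 TPM in the obesogenic libraries. Ccl27a has near-identical copies (45.0% of its 50-base words are shared), and 2 other Ccl27a entries reached at most 4.74 TPM, so its values are uncertain. Ccl25, known as a thymus and gut ligand, was at 11.0, 7.39 and 9.34 TPM against 13.03, 8.39 and 14.9 TPM. Their receptors were low: Ccr10 was at 0.234, 1.68 and 0.773 TPM against 0.652, 2.44 and 1.01 TPM, and Ccr9 was at 3.50, 2.10 and 1.65 TPM against 0.676, 1.96 and 0.414 TPM. Ccl20, its receptor Ccr6, and Ccl28 never reached 1 TPM.

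The remaining atypical receptors overlapped between diets. Ackr1, a chemokine transporter of venules and red cells, was at 8.25, 5.96 and 3.82 TPM in the controls and 1.66, 6.70 and 4.78 TPM in the obesogenic libraries, and 20.35% of its 50-base words are shared with Cadm3. Ackr4, a scavenger of Ccl19, Ccl21 and Ccl25, was at 5.05, 9.18 and 1.81 TPM against 2.63, 2.53 and 1.97 TPM. Ackr2, a scavenger of inflammatory CC ligands, was between 0.334 and 1.97 TPM. The second obesogenic library was the highest for none of the 3.

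The neutrophil axis was nearly silent. Of Cxcl1, Cxcl2, Cxcl3, Cxcl5, Cxcl15, Cxcr1 and Cxcr2, only Cxcl1 reached 1 TPM in any library, at 1.66 TPM in the second control library, and Cxcr1 was listed at 0 in all 6. The 7 genes summed to 0.589 to 2.95 TPM in the controls and 0.646 to 1.65 TPM in the obesogenic libraries. Cxcl17, a mucosal chemokine, was at 0.390, 1.81 and 1.71 TPM against 1.40, 0.837 and 0 TPM, and Cxcl14, made by epithelia, peaked at 1.79 TPM in the second control library.

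The comparison of diets was repeated without the second obesogenic library, with 3 control and 2 obesogenic libraries. In limma, 914 of the 14364 genes (6.36%), 179 of them lower, then passed an adjusted p of 0.05. Of the 30 members 2 did, a similar share when direction is ignored. Both members were lower, whereas most of the 914 genes were higher. Cxcl12 fell by 1.37 on the log2 scale (SE 0.16, adjusted p = 0.0182), and Cxcl16 fell by 1.15 (SE 0.25, adjusted p = 0.0491). Cx3cl1 changed by 1.15 ± 0.32, with an adjusted p of 0.0915 in limma that did not pass. Array weights, a limma setting that weighs libraries unequally, were 4.69, 0.185 and 0.453 for the obesogenic libraries and 1.16 to 1.57 for the controls. The first obesogenic library thus carried most of the weight of its diet. In that fit Cxcl12 also passed, with a log2 change of -1.31 (limma, adjusted p = 0.00464). Ccl6 passed too but Cxcl16 did not, where 14.4% of all genes passed. Without the second obesogenic library, 11 members were lower with no overlap (11.8% of all genes were): Ccl11, Ccl22, Ccl6, Ccl7, Ccl8, Ccr1, Ccr2, Ccr9, Cxcl12, Cxcl16 and Cxcr6. Another 3 members were higher with no overlap (31.6% of all genes were): Ccl25, Ccl27a and Cx3cl1. The mean was lower for 24 members and higher for 6, where 37.3% of all genes tested had a lower mean. The members' median change was -0.69, against 0.16 over all genes tested.

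**Figure D4:**
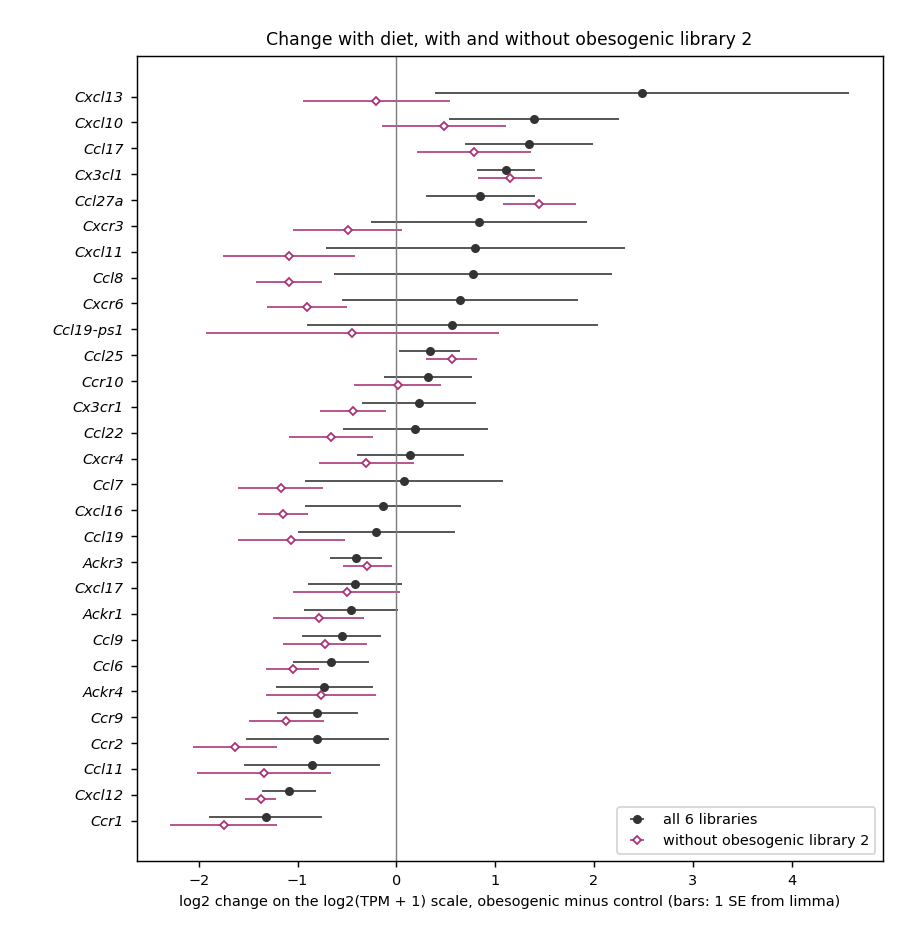
Log2 change on the log2(TPM + 1) scale, obesogenic minus control, for tested genes with all 6 libraries (filled circles) and without the second obesogenic library (open diamonds), with bars of 1 standard error from limma. Cxcl12 (-1.09 and -1.37) and Cx3cl1 (1.11 and 1.15) keep their place, while Cxcl13 goes from 2.49 to -0.20.

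The plot of changes with and without that library shows that Cxcl12 and Cx3cl1 had short error bars in both fits. The direction itself differed between the 2 fits for several members, among them Ccl22, Ccl7, Ccl8, Cx3cr1, Cxcl11, Cxcl13, Cxcr3, Cxcr4 and Cxcr6. Without it, Ccl8 changed by -1.08 and Cxcr6 by -0.90, against 0.77 and 0.64 with all libraries. The border macrophage list summed to 76.9 to 95.6 TPM in the obesogenic libraries and to 161 to 189.9 TPM in the controls. All 10 of its genes had a lower mean on the log2 scale with all libraries, but not all alike. Clec12a was at 4.71, 5.20 and 3.15 TPM in the controls and 1.17, 18.7 and 1.38 TPM in the obesogenic libraries. Ms4a7 hardly changed, at -0.004. The part of this list in the lower myeloid genes was not tested.

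The second obesogenic library was also compared alone with the 3 controls, a comparison added after seeing the data in which that lone library is assumed to vary like the controls. In limma, 193 genes (1.34%) and 4 members passed: Cxcl13 (7.87, adjusted p = 0.0450), Ccl8 (4.48, adjusted p = 0.0450), Cxcr6 (3.73, adjusted p = 0.0490) and Ccl7 (2.58, adjusted p = 0.0482), as log2 changes. This compares 1 library with the controls and not the diets. In it, 18 members lay above every control (22.7% of all genes did) and 2 lay below (44.2% of all genes did). Cxcl12 was at -0.51 there (adjusted p = 0.185) and Cx3cl1 at 1.04 (adjusted p = 0.107).

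Genes that act with the chemokine system were read from lists outside the set, and 0 passed the adjusted threshold in limma in any of the 5 with all 6 libraries. Of 10 tested chemokine-related genes outside the set, 8 had a higher and 2 a lower mean with the obesogenic diet, with a median change of 0.54. The second obesogenic library set that direction: the list's median there was 2.96 above the control mean on the log2 scale, but -0.16 and -0.79 from it in the first and the third, and without the second the median change was -0.63, with 7 of 10 lower. Ccl5, a chemokine of T and NK cells, was at 13.3, 31.9 and 7.77 TPM in the controls and 6.16, 539 and 3.13 TPM in the obesogenic libraries. Pf4, a chemokine of platelets and border macrophages, was without overlap between diets, at 31.7, 27.5 and 19.7 TPM in the controls against 18.9, 2.29 and 15.0 TPM (limma, adjusted p = 0.493).

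Downstream, 13 of 23 tested G proteins and effectors had a lower mean on the log2 scale and 10 a higher one. Their median change was -0.02 (-0.21 without the second obesogenic library). Cdc42, the GTPase of cell polarity, was at 12.2, 10.2 and 9.60 TPM against 53.8, 18.5 and 158 TPM, and Gng2, a G protein subunit, at 16.1, 12.5 and 16.2 TPM against 48.0, 21.7 and 71.5 TPM. Both did not overlap between diets and were highest in the third obesogenic library, as the neuron markers were, whose part was not tested. Of 12 genes of receptor desensitisation, 10 had a higher and 2 a lower mean, with a median of 0.42. Rgs2, which shortens G protein signals, was at 25.6, 17.6 and 20.3 TPM against 37.8, 40.3 and 81.4 TPM. Of 9 chemokine-processing genes, 7 had a lower and 2 a higher mean, with a median of -0.38, and Mmp2, which cleaves Cxcl12 and Ccl7, was at 49.3, 38.3 and 27.6 TPM against 16.6, 21.6 and 12.1 TPM. Of 5 tested inducing cytokines and their factors, 4 had a higher mean, with a median of 0.61. Here too the second obesogenic library stood alone, 3.03 above the control mean, with -0.27 and -0.42 in the first and the third, and without it 4 of the 5 had a lower mean, with a median of -0.25. Ifng, the interferon that induces Cxcl9, was at 4.93 TPM in the second obesogenic library, at 0.981 TPM in the third and at 0 in the other 4. Without the second obesogenic library, the desensitisation list kept a positive median, at 0.31, and that of the processing list was -0.08. Over the 5 lists, with 10, 23, 12, 9 and 5 tested genes, 4 genes then passed an adjusted p of 0.05 in limma. That share is near the 6.36% of all genes. Cdc42 (log2 change 3.01), Gng2 (1.91) and Grk3 (1.05), a kinase that desensitises receptors, were higher, and Mmp2 (-1.34) was lower.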

How the data were processed

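Poly(A) RNA of mouse optic nerve was measured in 6 libraries. Per the labels, the NucleoSpin RNA Plus XS kit gave the RNA and the SMART-Seq mRNA kit the libraries. The authors deposited transcript abundances as TPM. The submitters' processing notes list featureCounts 2.0.3, Subread, STAR 2.7.9a and DRAGEN with no role for any. Genome build, annotation and the source of TPM: not given in the sources used here.

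The table held 110028 lines for 109383 transcripts, of which 415 were repeated and counted once. Transcripts were summed per gene. Genes at 1 TPM or more in at least 3 libraries (14364) were put on the log2(TPM + 1) scale and fitted with limma 3.58.1 (R 4.3.3, eBayes with a trend), obesogenic minus control. P-values are two-sided, with Benjamini-Hochberg adjustment across every gene or transcript in the fit and a threshold of 0.05. The scale understates the change of low genes. The fits were tested on simulated data with independent normal noise and, for each gene, the same spread in every library. That test does not cover a library that stands apart, as the second obesogenic library did. With 3 libraries against 3, no exact permutation p can be below 0.1, so that test was left aside.

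Members, gene lists and markers were chosen with earlier results of these data known, and no list was tested as a set. Each library's value is given for most members that were tested or exceeded 5 TPM, and ranges for the rest. Some values are not reported here. Of other genes, a few were named from the lists after their values were seen. Promoter windows are from RefSeq, GRCm38.p6, and shared 50-base words were counted in GENCODE M21 transcripts with Python 3.11.15. Protein sequences were not analysed here. Alternatives covered the pseudocount, the filter, scaling (including trimmed mean of M values, TMM, computed on TPM as a scaling only), the sample number as a block, eBayes without a trend, array weights and each library left out.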

Additional observations from a re-analysis of the deposited data

How the results depend on the processing

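With each library left out in turn, the number of all genes past the threshold ranged from 0 to 914, that of chemokine and receptor genes from 0 to 2, that of members lower without overlap from 1 to 11 and higher from 1 to 3, and the members' median log2 change from -0.69 to 0.38. The upper counts of called genes come from leaving out obesogenic library 2, which also gave the lowest median. Leaving out control library 1 gave 3 members lower without overlap (9.52% of all genes were), and leaving out control library 3 gave 5 (12.3%). Over the same fits the log2 change of Cxcl12 was -1.37 to -0.91, with limma's adjusted p from 0.0182 to 0.755. Among those that changed direction were Ccl19 (-1.06 to 0.42), Ccl19-ps1 (-0.58 to 1.99), Ccl22 (-0.66 to 0.79), Ccl7 (-1.17 to 1.02), Ccl8 (-1.08 to 1.76), Cx3cr1 (-0.44 to 0.68), Cxcl11 (-1.09 to 1.77), Cxcl13 (-0.20 to 4.41), Cxcl16 (-1.15 to 0.42), Cxcr3 (-0.49 to 1.64), Cxcr4 (-0.31 to 0.44) and Cxcr6 (-0.90 to 1.51). With array weights, 2064 genes and 2 members (Cxcl12, and Ccl6 at -0.82, adjusted p = 0.0419 in limma) passed, the median was -0.63, and the direction changed for Ccl19-ps1 (-1.71), Ccl22 (-0.34), Ccl7 (-0.57), Ccl8 (-0.998), Ccr10 (-0.090), Cx3cr1 (-0.20), Cxcl11 (-0.95), Cxcl13 (-0.90), Cxcl17 (0.011), Cxcr3 (-0.22), Cxcr4 (-0.23) and Cxcr6 (-0.60). With a pseudocount of 0.1 TPM, Ccl22 (-0.11) and Ccl7 (-0.13) changed direction. Without the filter 0 genes passed, and with TMM scaling 2 members were lower without overlap. With obesogenic library 2 as the only obesogenic library, 193 genes and 4 members passed, 18 members were higher and 2 lower without overlap, the median was 1.04, and the direction changed for Ackr1 (0.19), Ccl11 (0.12), Ccl19 (1.52), Ccl25 (-0.11), Ccl27a (-0.35), Ccl6 (0.12), Ccr2 (0.86) and Cxcl16 (1.89). The cause of these changes was not tested beyond the smaller number of libraries. Over all 15 alternatives, 9 of the 30 tested members kept their direction: Ackr3, Ackr4, Ccl17, Ccl9, Ccr1, Ccr9, Cx3cl1, Cxcl10 and Cxcl12.

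The labels do not say that the sample numbers pair the libraries. These numbers are those of the sample titles, and the headers of the deposited values number the libraries in another way. The correlations of deviations between libraries of the same number were 0.0079, 0.177 and 0.132. Between libraries of different numbers they ran from -0.169 to 0.108. For each control library the same number gave the highest value, but the values are small and do not decide whether libraries were paired. With the sample number as a replicate block, 1 gene over all and 0 members passed, the median was 0.17, and limma's adjusted p was 0.239 for Cxcl12 and 0.309 for Cx3cl1. Depth cannot be read from TPM, so low values have no counting error here.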
